A study of Mus musculus with 2 samples.

Results

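The 10 cadherin genes Cdh2, Cdh4, Cdh6, Cdh8, Cdh9, Cdh10, Cdh11, Cdh12, Cdh13 and Cdh18 were described across the cell types of the mouse forebrain at embryonic day 18.5. They were taken by symbol from the 32285 genes counted, of which 23 are named Cdh with a number. The 2 droplet libraries each pooled 2 forebrains of embryos, wild type in 1 library and, by its label, Cyfip2 knockout in the other. The sources used here do not give the kind of mutant allele, the strain or the sex of the embryos. Each group has 1 library and no replicate, so no difference between the libraries carries a test, and every interval below is a 95% interval that covers counting error only.

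Classical cadherins are calcium-dependent adhesion proteins that bind cadherins on the next cell and hold the actin cytoskeleton through catenins at their cytoplasmic tail. Type II genes in particular are expressed in patches and layers of the developing brain, where they take part in sorting cells and matching axons with targets. Of the 10 genes, 2 encode type I cadherins (Cdh2, N-cadherin, and Cdh4, R-cadherin) and 7 encode type II cadherins (Cdh6, Cdh8, Cdh9, Cdh10, Cdh11, Cdh12 and Cdh18). Cdh13 encodes T-cadherin, which is held in the membrane by a lipid anchor and lacks the tail that binds catenins, so it is not a classical cadherin in the strict sense. Cyfip2, the targeted gene, encodes a subunit of the WAVE complex, which drives branched actin assembly.

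After filtering, 8426 cells of the wild-type library and 11533 of the other remained, with medians of 9567 and 7783 unique molecular identifiers (UMIs, counted molecules) per cell, and 30 of their barcodes occurred in both libraries. They fell into 30 clusters made without any Cdh gene and named from marker genes; each name stands for "-like", since no cell labels of the authors were used. Excitatory neurons numbered 4871 and 6086, GABAergic neurons 2072 and 3585, progenitors 1125 and 1303, Cajal-Retzius cells 38 and 59, microglia with macrophages 69 and 143, vascular cells 32 and 68, and meningeal fibroblasts 18 and 33 (wild type first, here and below). Cyfip2 itself was at 84.9 and 84.4 CPM (the UMIs of a gene per 1000000 UMIs summed over the cells in question). It was at 102 and 92.1 CPM in excitatory neurons, 32.9 and 62.1 CPM in progenitors, and 3.67 and 46.4 CPM in microglia with macrophages. Over all cells Cyfip2 tags were thus at the same level in the library labelled knockout, which is called knockout-labelled throughout, and the direction of any difference rests on that label. Whether the counted tags lie in the targeted part of the gene is not given in the sources used here.

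In GENCODE vM21 (GRCm38, the build called mm10), 5 of the 10 genes lie in a row on chromosome 15, over 10.4 Mb. They run in the order Cdh6 (ENSMUSG00000039385, minus strand, 13028701 to 13173675), Cdh9 (ENSMUSG00000025370, plus strand, 16728756 to 16857094), Cdh10 (ENSMUSG00000022321, plus strand, 18818947 to 19014236), Cdh12 (ENSMUSG00000040452, plus strand, 20449265 to 21589533) and Cdh18 (ENSMUSG00000040420, plus strand, 22549022 to 23474418). The gaps between neighbours run from 0.959 Mb (Cdh12 to Cdh18) to 3.56 Mb (Cdh6 to Cdh9), and no annotated protein-coding gene lies in them. Chromosome 8 holds Cdh8 (ENSMUSG00000036510, minus strand, 99024471 to 99416471), Cdh11 (ENSMUSG00000031673, minus strand, 102632095 to 102785642) and Cdh13 (ENSMUSG00000031841, plus strand, 118283733 to 119324921).

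RefSeq promoter windows (GRCm38.p6) were matched for 6 of the 10 genes, Cdh6, Cdh8, Cdh9, Cdh10, Cdh12 and Cdh18. The 250 bases before each RefSeq start were compared in 15 pairs, of which 3 shared a run of at least 13 bases. The windows of Cdh10, Cdh12 and Cdh18 lie inside the GENCODE spans of these genes, and that of Cdh9 lies partly inside. The Cdh18 window, 23036213 to 23036462, is thus before an internal start in a span of 22549022 to 23474418. The longest run was the 15 bases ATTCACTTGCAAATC in the windows of the neighbours Cdh6 and Cdh9. It lay 18 to 4 bases before the start of Cdh6 and 209 to 195 bases before that of Cdh9, and among 32851 promoter windows of this length, searched on both strands, 2 (0.00609%) hold it. Cdh9 and Cdh18 shared the 13 bases AGCCAATCAGAGA, which hold the letters CCAAT. This run lay 76 to 64 bases before the start of Cdh9 and 64 to 52 bases before that of Cdh18, and 31 windows (0.0944%) hold it. CCAAT alone, on either strand, is in 33.8% of all windows and in those of Cdh8, Cdh9 and Cdh18. Cdh6 and Cdh8 shared the 13 bases GGGAGGGGGCGGG, found in 0.338% of windows. The windows of Cdh6, Cdh9 and Cdh18 are shown because they carry the first 2 of these runs, which are in capitals. Each is written 5′ to 3′ along the gene's strand and leaves out bases that a GENCODE exon covers, which removes the CCAAT run of Cdh9. The bases shown are chr15:13173676-13173925 (minus strand) for Cdh6, chr15:16728665-16728755 (plus strand) for Cdh9 and chr15:23036213-23036454 (plus strand) for Cdh18.
Cdh6: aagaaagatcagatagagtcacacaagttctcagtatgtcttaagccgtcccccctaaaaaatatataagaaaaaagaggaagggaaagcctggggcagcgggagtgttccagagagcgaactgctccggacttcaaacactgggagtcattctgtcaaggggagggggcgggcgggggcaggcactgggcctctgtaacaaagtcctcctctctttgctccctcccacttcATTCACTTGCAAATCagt
Cdh9: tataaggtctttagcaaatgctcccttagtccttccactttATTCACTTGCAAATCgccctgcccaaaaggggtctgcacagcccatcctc
Cdh18: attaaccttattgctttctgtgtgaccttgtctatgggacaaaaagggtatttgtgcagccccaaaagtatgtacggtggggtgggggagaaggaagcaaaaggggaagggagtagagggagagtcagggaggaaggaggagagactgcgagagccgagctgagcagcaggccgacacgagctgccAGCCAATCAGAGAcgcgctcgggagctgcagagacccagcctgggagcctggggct
A shared run is a description of letters, not of a binding site. Across the 29 clusters of at least 50 cells, Pearson's r of log2(CPM + 5) was 0.14 for Cdh6 with Cdh9 and 0.64 for Cdh9 with Cdh18.

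Of the 10 cadherins, 8 were highest in a cluster of excitatory neurons. The share of all genes that are highest in each kind of cluster is not given here. This count and those that follow are thus not read as particular to cadherins. Layer 6 corticothalamic neurons (cluster 23), which send axons to the thalamus, held the highest level of 4 members (Cdh2, Cdh9, Cdh13 and Cdh18). Upper-layer neurons held that of 3, Cdh6 and Cdh10 in cluster 12 and Cdh12 in cluster 16. Subcerebral layer 5 neurons held that of Cdh8, Cajal-Retzius cells that of Cdh4 and meningeal fibroblasts that of Cdh11. For 7 members, all but Cdh9, Cdh10 and Cdh18, the same cluster was highest in both libraries. Spearman's rho of the 29 clusters between the libraries ran from 0.50 (Cdh18) to 0.98 (Cdh2), as a description, since the clusters were formed over both libraries together. Levels are compared within a gene and not between genes.

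**Figure D1:**
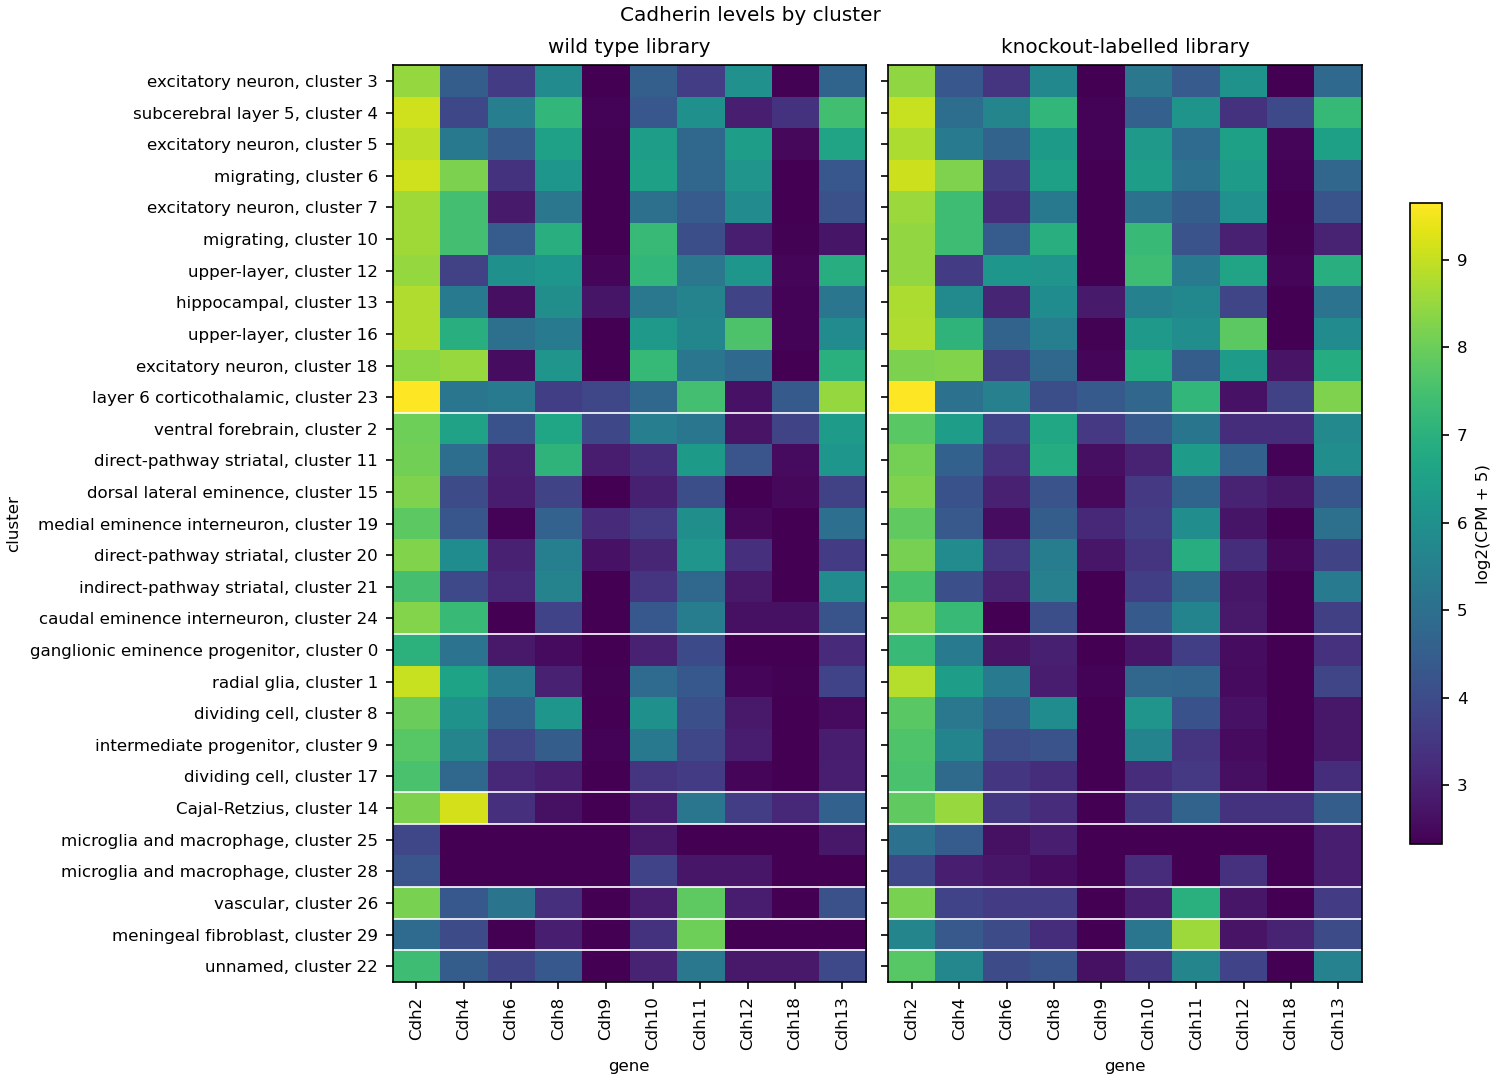
Level of each of the 10 cadherins in the 29 clusters of at least 50 cells, as log2(CPM + 5) of summed UMIs, in the wild-type library and the knockout-labelled library. Cdh2 is high in nearly every cluster, Cdh4 is highest in Cajal-Retzius cells, Cdh13 in layer 6 corticothalamic neurons and Cdh11 in meningeal fibroblasts, in both libraries.

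Cdh2 (ENSMUSG00000024304, chromosome 18, minus strand, 16588877 to 16809246), which builds the adherens junctions of radial glia, was the most widely spread member. Layer 6 corticothalamic neurons had 836 CPM (798 to 875) and 788 CPM (750.3 to 827) of it. Migrating neurons of cluster 6 (554 and 538 CPM) and subcerebral layer 5 neurons (552 and 517 CPM) came next, and their intervals over both libraries summed overlapped. Radial glia, the stem cells of the cortex, followed with 522 CPM (502 to 542) and 456 CPM (435 to 478), above the other progenitors. Dividing cells of cluster 8 had 248 and 216 CPM, intermediate progenitors 211 and 193 CPM, dividing cells of cluster 17 had 181 and 181 CPM, and ganglionic eminence progenitors 125 and 149.7 CPM. Microglia with macrophages were lowest, at 11.9 CPM (13 UMIs) and 17.6 CPM (33 UMIs). The level was at least 20 CPM in 28 of 29 clusters, and the highest cluster stood 2.85-fold above the median cluster.

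Cdh4 (ENSMUSG00000000305, chromosome 2, plus strand, 179442431 to 179899373) was the type I cadherin with the narrower pattern. Cajal-Retzius cells, early neurons that secrete Reelin at the brain surface, had 573 CPM (521 to 629) and 364 CPM (329 to 401), the highest cluster in both libraries. Excitatory cluster 18, led by Tfap2d and Thsd7a, had 365 and 303 CPM, and migrating neurons of cluster 6 had 293 and 297 CPM, which overlapped over both libraries. Excitatory cluster 7 (172 and 162 CPM) and migrating neurons of cluster 10 (170.2 and 162 CPM) overlapped as well. Among GABAergic neurons, caudal eminence interneurons had 153 and 151 CPM, against 14.4 and 15.8 CPM in medial eminence interneurons. The upper-layer clusters were far apart, with 118 and 131 CPM in cluster 16 and 8.30 and 7.34 CPM in cluster 12.

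**Figure D2:**
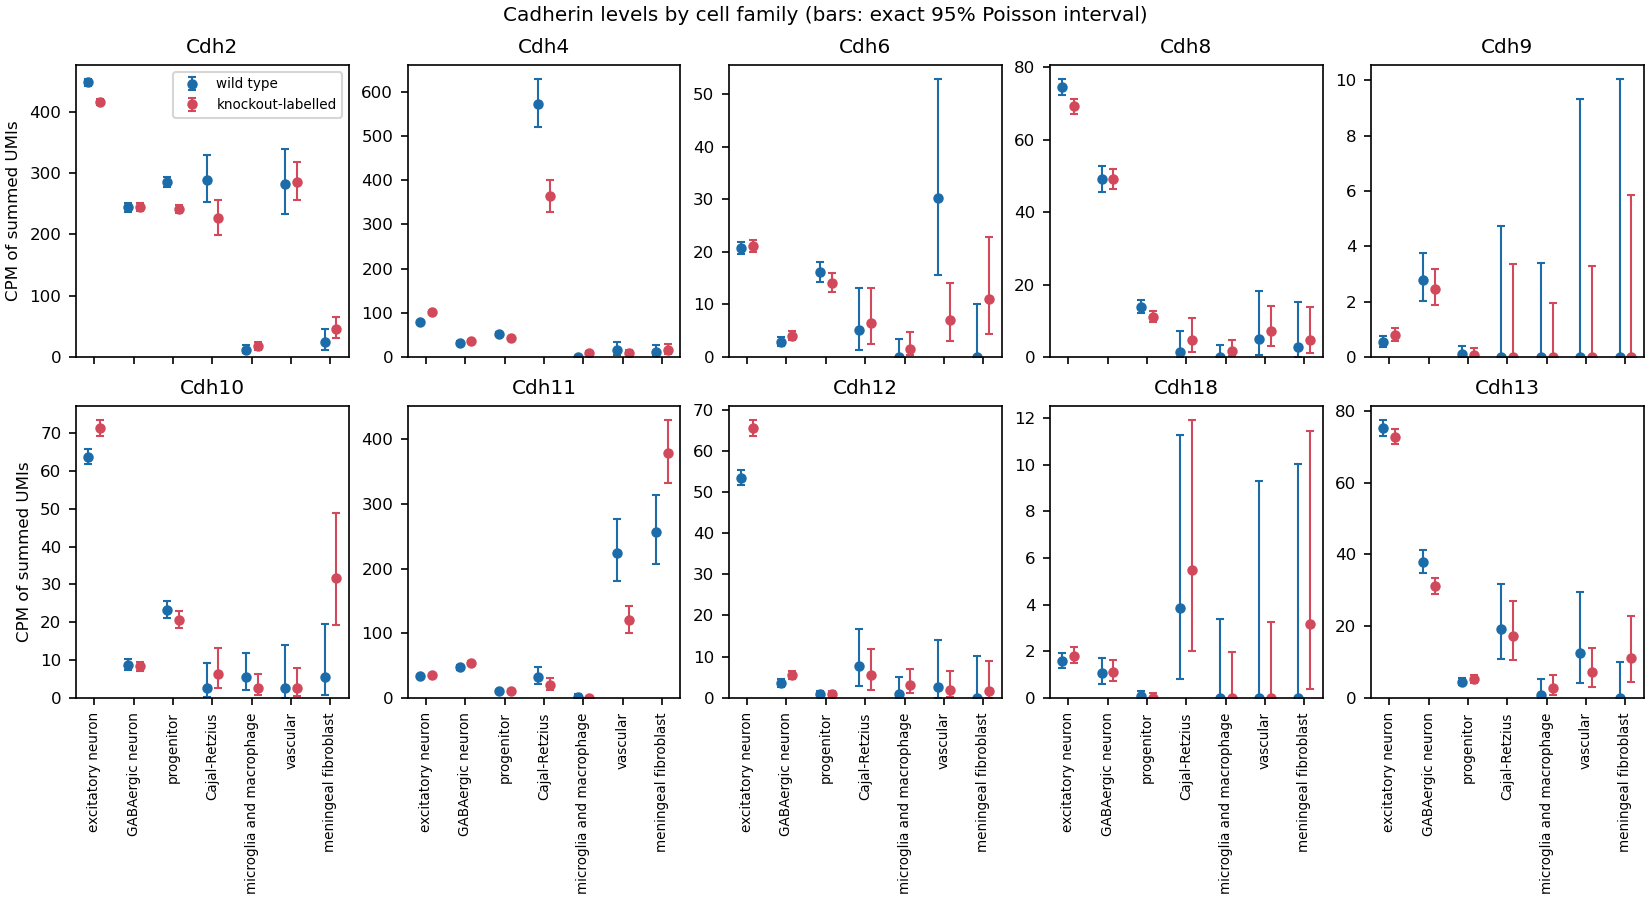
CPM of summed UMIs of each cadherin by cell family, in the wild-type and knockout-labelled libraries; points are levels and bars exact 95% Poisson intervals. Excitatory neurons are above GABAergic neurons and progenitors for Cdh2, Cdh4, Cdh6, Cdh8, Cdh10, Cdh12 and Cdh13, while Cdh11 is highest in meningeal fibroblasts and vascular cells.

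Cdh6, also called K-cadherin, was highest in upper-layer cluster 12 (59.5 and 66.9 CPM). Subcerebral layer 5 neurons (39.2 and 45.1 CPM), layer 6 corticothalamic neurons (36.2 and 41.0 CPM) and radial glia (36.7 and 35.7 CPM) followed, and neighbours among these 3 overlapped. No UMI of Cdh6 was seen in the 131 and 169 caudal eminence interneurons, where 0 allows up to 3.79 and 3.02 CPM by a floor of 3 counts per library, and medial eminence interneurons had 0.205 and 0.917 CPM.

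Cdh8, known for its patterned expression in cortex and striatum, was highest in subcerebral layer 5 neurons (139 and 140.3 CPM), against 7.78 and 12.1 CPM in layer 6 corticothalamic neurons. Direct-pathway striatal neurons of cluster 11 (132 and 111 CPM) and migrating neurons of cluster 10 (119 and 118 CPM) came next and overlapped, and ventral forebrain neurons had 95.2 and 98.8 CPM. The other direct-pathway cluster, number 20, had 39.7 and 38.0 CPM, and overlapped indirect-pathway neurons at 44.0 and 40.6 CPM. Dividing cells differed by cluster, with 67.0 and 54.4 CPM in cluster 8 and 2.66 and 4.64 CPM in cluster 17. Within the progenitors, the leading genes of cluster 8 included the excitatory neuron markers Neurod6 and Neurod2. Those of cluster 17 included the GABAergic neuron markers Dlx5, Dlx6os1 and Dlx1, so these clusters are not the same kind of dividing cell.

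Cdh10, a type II cadherin, had overlapping levels in upper-layer cluster 12 (141 and 163 CPM) and migrating cluster 10 (147 and 152 CPM), and each of these was highest in 1 library. It was at 24.4 and 21.8 CPM in radial glia, 33.8 and 44.0 CPM in intermediate progenitors and 58.4 and 65.1 CPM in dividing cells of cluster 8, but at 2.96 and 1.87 CPM in ganglionic eminence progenitors. GABAergic neurons as a family had 8.75 and 8.32 CPM, against 63.8 and 71.5 CPM in excitatory neurons.

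Cdh12, known as brain cadherin, was mostly in excitatory neurons, with 53.5 and 65.5 CPM there, 3.58 and 5.43 CPM in GABAergic neurons and 1.00 and 1.01 CPM in progenitors. Its log2 ratio of progenitors over excitatory neurons was -5.74 and -6.01; without doublet removal it was -4.08 and -3.53, and with free RNA subtracted -6.93 and -6.73. Upper-layer cluster 16 had 189 and 218 CPM, apart from excitatory cluster 5 (82.0 and 85.3 CPM) and upper-layer cluster 12 (66.6 and 91.3 CPM), which overlapped. The deep layers were low, with 2.71 and 5.43 CPM in subcerebral layer 5 and 1.37 and 1.45 CPM in layer 6 corticothalamic neurons. Outside the excitatory family the highest level was that of direct-pathway striatal cluster 11, at 14.2 and 19.4 CPM.

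Cdh11, known from osteoblasts and other mesenchymal cells, was highest in the meningeal fibroblasts. Meningeal fibroblasts had 256 CPM (207 to 313) and 379 CPM (332 to 429.9), and vascular cells 225 CPM (180.3 to 276) and 119.8 CPM (100.5 to 142). Among neurons it was highest in layer 6 corticothalamic neurons (171 and 139 CPM), which overlapped vascular cells over both libraries, and then in direct-pathway striatal clusters 20 (65.4 and 114 CPM) and 11 (74.3 and 77.1 CPM). As a family, GABAergic neurons (46.9 and 53.9 CPM) were above excitatory neurons (33.9 and 35.2 CPM), by 0.47 and 0.61 on the log2 scale. With each cluster of a family weighted equally these differences were 0.03 and 0.32.

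Cdh9, which acts at synapses of the hippocampus, and Cdh18 stayed under 20 CPM in every cluster, below the level set for comparing the libraries. Cdh9 was highest in layer 6 corticothalamic neurons, at 9.61 CPM (21 UMIs) and 15.9 CPM (33 UMIs), and in ventral forebrain neurons, at 9.91 CPM (13 UMIs) and 6.51 CPM (23 UMIs), which overlapped. Cdh18 was at 16.0 CPM (35 UMIs) and 8.68 CPM (18 UMIs) in layer 6 corticothalamic neurons and 5.43 CPM (48 UMIs) and 10.3 CPM (80 UMIs) in subcerebral layer 5 neurons, so that layer 6 was highest in wild type and layer 5 in the knockout-labelled library. Progenitors held 1 and 0 UMIs of Cdh18, where 0 allows up to 0.169 CPM.

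Cdh13 was highest in the deep layers of the cortex. Layer 6 corticothalamic neurons had 357 and 295 CPM, subcerebral layer 5 neurons 167 and 147 CPM, and upper-layer cluster 12 had 115 and 115 CPM. Upper-layer cluster 16, at 53.1 and 53.1 CPM, lay below cluster 12, while for Cdh4 and Cdh12 cluster 16 lay above it. Direct-pathway striatal neurons of cluster 11 had 67.6 and 55.6 CPM, but those of cluster 20 had 7.34 and 9.19 CPM. Dividing cells of cluster 8 were lowest, at 0.853 and 1.87 CPM.

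To set shares of cells against stray RNA in the droplets, every cell was thinned to 1000 UMIs and compared with microglia and macrophages, taken here as cells that should lack these cadherins. The share with a UMI of Cdh2 was then 36.8% and 34.1% in excitatory neurons, but 1.45% (0.0367% to 7.81%, exact binomial) and 3.50% (1.14% to 7.97%) in microglia and macrophages. Without thinning, the shares were 93.4% and 90.1% of excitatory neurons, at medians of 10611 and 8741 UMIs, and 8.70% and 15.4% of microglia and macrophages, at 15353 and 12641 UMIs. After thinning to 5000 UMIs, which leaves out 2034 and 3539 shallower cells, excitatory neurons carried UMIs of a mean of 2.19 and 2.29 of the 10 members. GABAergic neurons carried 1.23 and 1.27, progenitors 1.20 and 1.08, and microglia with macrophages 0.0769 and 0.163.

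Patterns of the members were compared in 45 pairs across the 29 clusters, as a description, since clusters share their libraries and differ in depth. After Cdh9 with Cdh18, the most alike pairs were Cdh10 with Cdh12 (r = 0.60), Cdh13 with Cdh18 (0.60) and Cdh8 with Cdh10 (0.56). The least alike were Cdh9 with Cdh12 (-0.19) and Cdh12 with Cdh18 (-0.17). Cdh9 and Cdh18 had medians of 0.0979 and 0.137 CPM and highest levels of 12.7 and 12.4 CPM over the clusters, so r of any pair that holds either gene rests on few UMIs, beside a pseudocount of 5 CPM. Identity of the coding sequences was 59.9% to 70.7% among the 21 pairs of type II genes, 66.0% between Cdh2 and Cdh4, and 46.0% to 50.1% for the 23 pairs of different types. The most identical coding sequences were those of Cdh6 with Cdh10 (70.7%, r = 0.53), Cdh6 with Cdh9 (69.7%, r = 0.14) and Cdh9 with Cdh10 (69.3%, r = -0.06). The median r was 0.24 among type II pairs and 0.37 among pairs of different types.

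**Figure D3:**
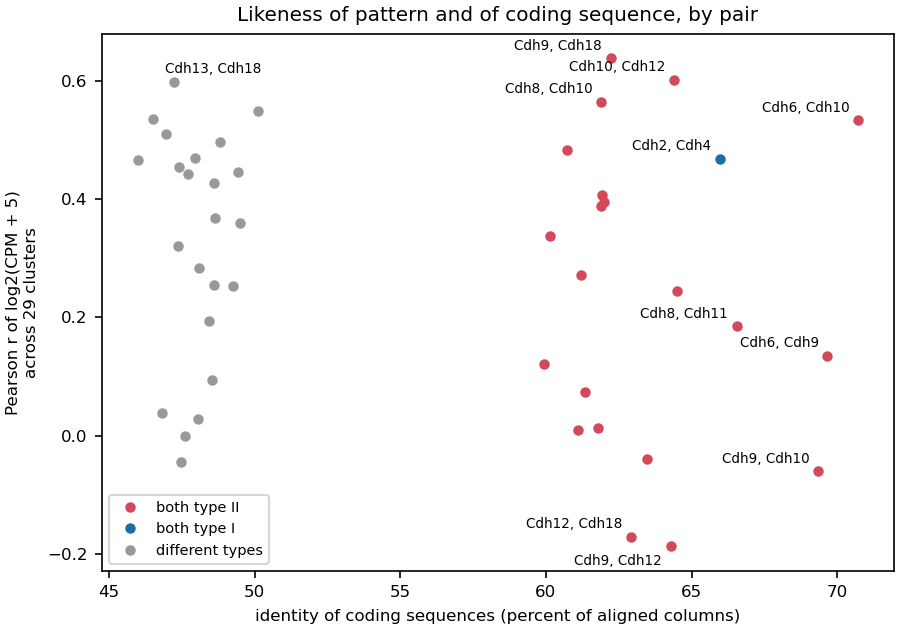
Each point is a pair of the 10 cadherins; the horizontal axis is the identity of their coding sequences in percent and the vertical axis Pearson's r of log2(CPM + 5) across 29 clusters. Type II pairs lie between 59.9% and 70.7% identity and span r from -0.19 to 0.64.

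The genes most like each member across the 29 clusters were taken from 11147 genes, with r in parentheses. Cdh2 was most like Ro60 (0.92), Dmwd (0.92) and Zfp267 (0.92). For Cdh4 they were Trim9 (0.77), Hip1r (0.75) and Unc5a (0.75). Cdh6 was most like Shisa9 (0.79), Sybu (0.76) and Eml1 (0.76). For Cdh8 they were Zfp599 (0.81), Lrrn3 (0.79) and Mllt3 (0.78). Cdh9 was most like Gabra3 (0.74), Galnt9 (0.73) and Rgs9 (0.72). For Cdh10 they were Masp1 (0.82), Hs3st1 (0.81) and Map2k6 (0.81). Cdh11 was most like Cdc42ep2 (0.82), Prrg3 (0.82) and Gnb4 (0.81). For Cdh12 they were Osbpl6 (0.86) and Frmd4a (0.86). Cdh13 was most like Frmd3 (0.91), Scn2a (0.89) and Plppr5 (0.89). For Cdh18 they were Slc8a3 (0.83), Rimbp2 (0.82) and Hs3st2 (0.78). Cdh9 and Cdh18 themselves stayed under the 20 CPM in a cluster that was asked of the genes compared, so their r rests on few UMIs. Unc5a is a netrin receptor, Gabra3 a subunit of the GABA-A receptor and Scn2a a sodium channel.

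Between the libraries, no member passed the size rule in any of the large families. A gene was called when its CPM differed by at least 1.5-fold and the interval of the ratio left out 1, which describes size and tests nothing. Genes counted as measured if 1 library or both had 20 CPM or more and the libraries together had at least 100 counts. Over all cells, 0 of 7 measured members were called, where 0.556% of all measured genes were. In excitatory neurons it was 0 of 8 (background 0.222%), in GABAergic neurons 0 of 5 (0.584%) and in progenitors 0 of 3 (0.643%). The median log2 ratio, knockout-labelled over wild type, was 0.04 over the 8 members in excitatory neurons and -0.02 over all 6764 measured genes there.

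Excitatory neurons held 79.7 CPM (77.5 to 82.0) and 102 CPM (99.1 to 104) of Cdh4, which makes the log2 ratio 0.35 (0.30 to 0.40). Cluster 18, which is high in Cdh4, held 135 and 684 cells, and the ratio was 0.15 without it and -0.04 with equal weights for each cluster. For Cdh12 they held 53.5 CPM (51.7 to 55.4) and 65.5 CPM (63.5 to 67.5), and its log2 ratio of 0.29 (0.23 to 0.36) was 0.25 without cluster 18 and 0.32 with equal weights. In progenitors Cdh2 (286 and 241 CPM, log2 ratio -0.24) and Cdh4 (52.7 and 42.5 CPM, -0.31) were lower in the knockout-labelled library, and in GABAergic neurons Cdh13 (37.9 and 31.1 CPM, -0.28), all under 1.5-fold. With equal cluster weights these ratios were -0.11 for Cdh2, -0.20 for Cdh4 and -0.34 for Cdh13. In the progenitors the radial glia list summed to 4295 and 3607 CPM, the list of ganglionic eminence progenitors to 1055 and 1299 CPM and that of GABAergic neurons to 1053 and 1456 CPM; their part was not tested. A family sum by itself does not tell fewer cells of a type from less RNA per cell. The progenitors held 330 and 277 radial glia, 218 and 180 intermediate progenitors and 182 and 270 ganglionic eminence progenitors. Dividing cells were 121 and 119 in cluster 8 and 274 and 457 in cluster 17. Within clusters, Cdh2 was at 522 and 456 CPM in radial glia and at 125 and 149.7 CPM in ganglionic eminence progenitors. The part of each was not tested.

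Within the 24 clusters of at least 50 cells in each library, 110 of 240 pairs of member and cluster were measured, and 9 of them (8.18%) were called, against 2.13% of all measured genes in these clusters. Of the 9 pairs, 4 were higher in the knockout-labelled library (background 1.03%) and 5 lower (1.1%), and they lay in 6 clusters. The share of all genes called differed between these clusters, so the pooled share is not matched to the pairs. Cluster 18 held 3 pairs (7.15% of all genes called), cluster 2 held 2 (5.31%) and cluster 20 held 1 (4.5%). Clusters 8, 3 and 4 held 1 each (1.96%, 0.523% and 0.262%). Several pairs lay near the 20 CPM minimum or fell under 1.5-fold in finer clusters, as given below. Cdh2, measured in all 24 clusters, was called in none, with log2 ratios between -0.26 and 0.39. Its interval lay below 0 in 7 clusters and above 0 in 2. Cdh12 was measured in 7 clusters, and its log2 ratio was above 0 in each, from 0.01 to 1.74, with the interval above 0 in 4. The share of all genes with such intervals is not given here.

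**Figure D4:**
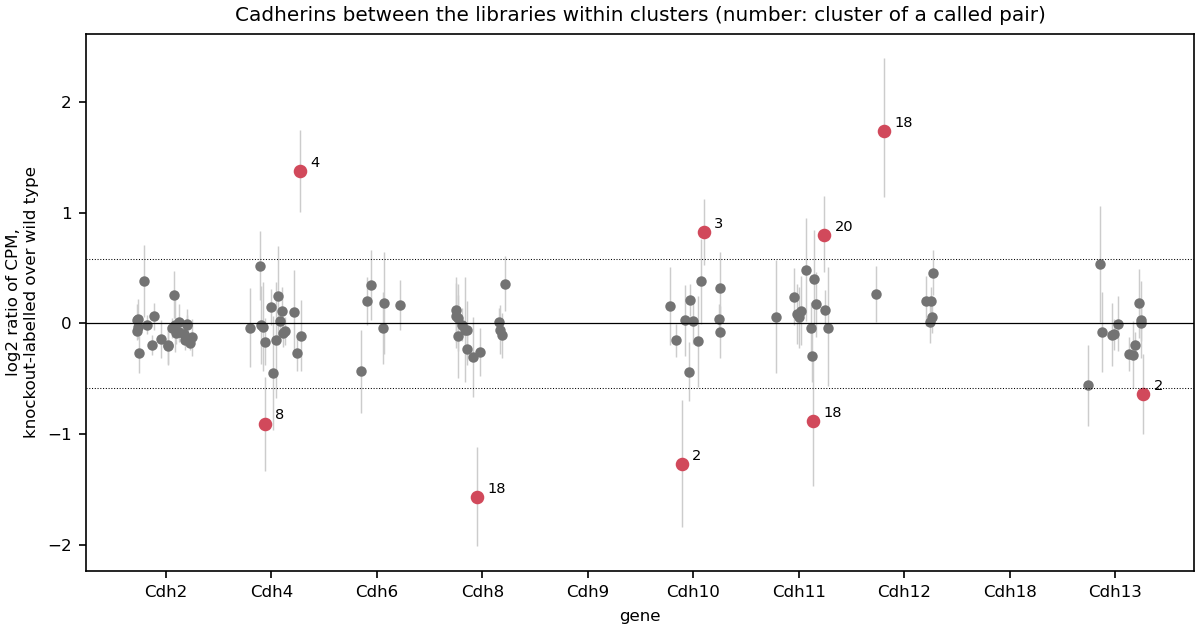
Log2 ratio of CPM, knockout-labelled over wild type, for each cadherin in each cluster where it was measured, with 95% intervals for counting error; the 9 called pairs are marked. Cdh12 in cluster 18 (1.74) and Cdh4 in cluster 4 (1.37) are farthest above 0, and Cdh8 in cluster 18 (-1.57) farthest below.

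Cdh4 in subcerebral layer 5 neurons (cluster 4) was at 10.2 CPM (90 UMIs) and 26.4 CPM (204 UMIs), a log2 ratio of 1.37 (1.01 to 1.75), in a cluster where 0.262% of genes were called. The cluster's own layer 5 list summed to 1577 and 1411 CPM. The list of medial eminence interneurons summed to 420.3 and 707 CPM, with 1 of its 6 markers at 20 CPM or more in each library and none at 0. That list holds Npy, which is the first leading gene of cluster 4 within the excitatory neurons. The part of these lists in the result was not tested. In dividing cells of cluster 8 the same gene was lower, at 62.3 CPM (146 UMIs) and 33.3 CPM (71 UMIs), a log2 ratio of -0.90 (-1.33 to -0.49), where 1.96% of genes were called. There the list of excitatory neuron markers was at 1352 and 1057 CPM, and its part was not tested. In the Cajal-Retzius cells, 38 and 59 in number, Cdh4 passed the size rule as lower, with a log2 ratio of -0.66 (-0.85 to -0.46), and 5.33% of 3677 genes passed it in either direction. These cells' own marker list summed to 7662 and 6545 CPM, the hippocampal list to 1027 and 593 CPM and the list of GABAergic neurons to 66.8 and 13.7 CPM; their part was not tested.

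Cdh10 in excitatory cluster 3 was at 18.2 CPM (176 UMIs) and 32.2 CPM (217 UMIs), a log2 ratio of 0.82 (0.53 to 1.12), and 0.523% of genes were called there. The list of migrating neuron markers in this cluster was at 876 and 664 CPM, and its part was not tested. With equal weights for the 4 finer parts of the cluster the levels were 13.2 and 24.6 CPM and the ratio was 0.90. A ratio of the same sign was found in 3 of these parts, and ratios ran from 0.689 to 0.985. In ventral forebrain neurons (cluster 2) Cdh10 was lower, at 38.9 CPM (51 UMIs) and 16.1 CPM (57 UMIs), a log2 ratio of -1.27 (-1.84 to -0.69). Cdh13 was lower there too, at 77.7 CPM (102 UMIs) and 49.8 CPM (176 UMIs), a log2 ratio of -0.64 whose interval lay below 0. In that cluster 5.31% of genes were called, and the list of medial eminence interneurons summed to 968 and 1751 CPM. That list holds Sst, which is also the first leading gene of cluster 2 itself. The part of this list was not tested.

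Cluster 18 held 3 of the 9 pairs, among 7 members measured there, and 7.15% of all genes were called in it. Cdh12 was at 23.2 CPM (24 UMIs) and 77.5 CPM (416 UMIs), a log2 ratio of 1.74 (1.14 to 2.40). Cdh8 was at 65.9 CPM (68 UMIs) and 22.2 CPM (119 UMIs), a log2 ratio of -1.57 (-2.01 to -1.12), and Cdh11 at 32.0 CPM (33 UMIs) and 17.3 CPM (93 UMIs), a log2 ratio of -0.88 (-1.47 to -0.26). Marker lists moved with them: migrating neuron markers summed to 1567 and 927 CPM and layer 5 markers to 688 and 1257 CPM, and their part was not tested. When the 2 finer parts of this cluster were weighted equally, the ratio was 1.41 for Cdh12, -0.41 for Cdh8 and -0.30 for Cdh11, so that only Cdh12 stayed past 1.5-fold.

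Cdh11 in direct-pathway striatal neurons of cluster 20 was at 65.4 CPM (89 UMIs) and 114 CPM (384 UMIs), a log2 ratio of 0.80 (0.46 to 1.15), in a cluster with 4.5% of genes called. Over its 2 finer parts with equal weights the ratio was 0.45, under 1.5-fold, and the direct-pathway marker list was at 4119 and 2946 CPM. In vascular cells, 32 and 68 in number, Cdh11 passed the size rule as lower, with a log2 ratio of -0.91 (-1.30 to -0.50), but 30.2% of 2758 genes passed it there. The mural marker list summed to 12156 and 3751 CPM in these cells and the endothelial list to 1307 and 6591 CPM; their part was not tested.

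Of the catenins, which couple the cadherin tail to actin and to signalling, 7 of 9 were measured in excitatory neurons, 6 in GABAergic neurons and 7 in progenitors, and 0 were called in each. Of all measured genes, 0.222%, 0.584% and 0.643% were called in these families. At such shares, 0 called among so few genes does not set this list or those below apart from other genes. In excitatory neurons the highest were Ctnnb1 (301 and 293 CPM), Ctnnd2 (164 and 147 CPM) and Ctnna2 (128 and 132 CPM). Ctnnb1, beta-catenin, was at 238 and 237 CPM in GABAergic neurons and at 527 and 489.8 CPM in progenitors. Of 11 junction linkers and nectins, 9, 8 and 7 were measured and 0 called, with Afdn (189 and 198 CPM), Magi2 (89.7 and 93.9 CPM) and Rap1a (61.4 and 63.7 CPM) highest in excitatory neurons. Of 6 genes of cadherin cleavage, 4 were measured in each family and 0 called, led in excitatory neurons by Adam10 (71.2 and 68.7 CPM), the protease that sheds the N-cadherin ectodomain, Aph1a (42.9 and 39.3 CPM) and Ncstn (26.4 and 24.2 CPM). In excitatory neurons the median log2 ratio was 0.04 for the catenins, 0.05 for the linkers and -0.09 for the cleavage genes, beside -0.02 for all genes.

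Of the other 9 type I and II cadherins, none was measured in any of the 3 large families. Cdh5, the cadherin of endothelial junctions, was highest in vascular cells, at 259 CPM over both libraries together. Cdh7 was highest in Cajal-Retzius cells, at 43.8 CPM. Cdh24 was highest in migrating neurons of cluster 6, with 1219 and 1420 UMIs over all cells.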

How the data were processed

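The 2 libraries were analysed as deposited, as UMI counts per gene and barcode for all barcodes, which the authors made on Cell Ranger 4 (per the file headers) with mm10, per the submitters' processing notes; the sources used here do not give the annotation release or counting settings. The members and gene lists were chosen with earlier results of these data known. Cells needed at least 1000 UMIs, 500 genes and at most 10% mitochondrial UMIs (9086 and 12855), and the top Scrublet scores were removed as doublets at 0.8% per 1000 cells. With scanpy 1.11.5, 2000 variable genes (without Cdh genes, Cyfip2, sex-linked, mitochondrial, ribosomal and haemoglobin genes), 30 principal components, 15 neighbours and Leiden resolution 1 gave 30 clusters; the libraries were not aligned.

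A cluster took a family only with at least 3 of its markers 1.5-fold up, 3 or more of them in at least 50% of its cells, and no other family with more markers among its 10 leading genes. The rule for names was written, and later changed, with the clusters in view; endothelial and mural lists were joined as vascular, and cluster 22 (431 cells, led by Ttr) stayed unnamed. UMIs were summed per cluster or family and library and scaled to CPM, with exact Poisson intervals and exact conditional intervals for ratios. Named genes were all members, every listed gene past the size rule in a family, up to 3 of the highest genes of each list, and the 3 genes most like each member, of which 1 is not reported here. Coding sequences came from GENCODE vM21 and were aligned with Biopython 1.88.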

Additional observations from a re-analysis of the deposited data

Results flagged for a closer look

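Cdh4, Cdh10 and Cdh11 each passed the size rule in opposite directions in different clusters. With 1 library per group, the difference between clusters was not tested. The share of all genes called in both directions is not given here, so this is not read as a trait of cadherins. Of all measured genes, 0.262% were called in cluster 4, 1.96% in cluster 8 and 0.523% in cluster 3. The shares were 5.31% in cluster 2, 4.5% in cluster 20 and 7.15% in cluster 18. Cdh4 had a log2 ratio, knockout-labelled over wild type, of 1.37 in subcerebral layer 5 neurons (cluster 4) and -0.904 in dividing cells of cluster 8. Cdh10 had 0.825 in excitatory cluster 3 and -1.27 in ventral forebrain neurons of cluster 2. Cdh11 had 0.801 in direct-pathway striatal neurons of cluster 20 and -0.884 in excitatory cluster 18. With equal weights for the finer parts of each cluster neither Cdh11 ratio stayed past 1.5-fold (0.45 and -0.30). Cdh10 in cluster 3 had 0.90 over its 4 finer parts, of which 3 gave a ratio of the same sign. Cdh4 in clusters 4 and 8 and Cdh10 in cluster 2 had 1 finer part each, so this check could not reweight them. Cdh4 in cluster 4, Cdh10 in clusters 3 and 2 and Cdh11 in cluster 18 reached 20 CPM in only 1 library and 50 CPM in neither. At a minimum of 50 CPM, none of these genes kept calls in both directions.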

How the results depend on the processing

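Alternatives changed the scaling, doublet removal, cell filters, clustering, cluster weights, free RNA and the minimum on low values; leaving excitatory cluster 18 out, and weighting finer clusters equally, were added after seeing the data. No paired analysis was possible because each group has 1 library. The number of members called in the 3 large families stayed at 0 except for 1 higher in GABAergic neurons with no minimum on low values. Genes called higher and lower were 11 and 4 in excitatory neurons, 32 and 8 in GABAergic neurons, 14 and 30 in progenitors. With no minimum they were 385 and 181 in excitatory neurons, 409 and 185 in GABAergic neurons, 223 and 516 in progenitors. At 50 CPM they were 4 and 1 in excitatory neurons, 11 and 2 in GABAergic neurons, 7 and 5 in progenitors. With equal cluster weights they were 5 and 3 in excitatory neurons, 16 and 7 in GABAergic neurons, 3 and 8 in progenitors. Without cluster 18, 4 genes were higher in excitatory neurons. Called pairs of member and cluster, 4 higher and 5 lower, became 13 higher and 6 lower with no minimum, and 2 higher and 3 lower at 50 CPM. Ratios of families over excitatory neurons within a library, 39 in all, kept their sign under the 10 alternatives, but 23 moved beyond their counting interval with no doublet removal and 17 with equal cluster weights. Another minimum changes how many genes are measured; for the other moves the cause was not tested. Few UMIs limit the precision, down to 24 in the called pairs.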
